A study of Rattus norvegicus with 48 samples.

Results

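The miR-199a and miR-214 cluster was followed through small RNA sequencing libraries of rat serum and ulna bone. It was taken as the 3 mature miRNAs rno-miR-199a-3p, rno-miR-199a-5p and rno-miR-214-3p, chosen by name from the 763 mature rat miRNAs that each library lists. All 3 had at least 1 read in each of the 48 libraries. The animals were male wild-type (WT) rats (Zucker lean, ZDF +/+) and Zucker diabetic fatty (ZDF, fa/fa) rats, which carry a leptin receptor mutation on both alleles and become obese and diabetic. Treatment began at 11 weeks of age and lasted 12 weeks. Serum came from WT rats on placebo (n = 5), PTH (parathyroid hormone, n = 5) or anti-sclerostin antibody (n = 4). The ZDF sera were from 5 rats each on placebo and PTH and from 4 rats each on the antibody and on insulin. For bone, each genotype gave 4 ulnae after placebo and 4 after PTH. The doses were 25 mg/kg of the antibody, 75 µg/kg of PTH and 0.5 to 13 IU of insulin. All rats, placebo included, carried a surgical defect in a femur and ate a diet rich in fat and carbohydrate. The leptin receptor is altered in all tissues of a ZDF rat, so diabetes, obesity and the loss of leptin signalling itself cannot be told apart.

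A miRNA guides the silencing complex to messenger RNAs that pair with its seed, the bases near its 5′ end. Both strands of the miR-199a hairpin can be loaded as mature miRNAs, the 5p and the 3p arm, while miR-214 is mostly found as its 3p arm. The hairpins are made from a shared long transcript on the strand opposite to Dnm3, a dynamin gene, and are abundant in mesenchymal cells such as fibroblasts, chondrocytes and osteoblasts. In bone, miR-214-3p is known as a brake on the osteoblast through ATF4 and Osterix and is released by osteoclasts in vesicles. The miR-199a arms are known to act on chondrocyte and osteoblast differentiation and on the hypoxia response.

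The sequences below show the members with the seed (bases 2 to 8) in capitals, since the 3 seeds decide which messenger RNAs each member can address. They were taken from RefSeq, build GRCr8, 5′ to 3′.
rno-miR-199a-3p: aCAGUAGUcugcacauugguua
rno-miR-199a-5p: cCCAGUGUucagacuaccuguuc
rno-miR-214-3p: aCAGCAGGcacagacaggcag
The members lie on the plus strand of chromosome 13, at chr13:77116294-77116315 for miR-199a-3p, chr13:77116255-77116277 for miR-199a-5p and chr13:77121713-77121733 for miR-214-3p. Both hairpin genes, Mir199a2 and Mir214, lie within Dnm3, and 5397 bases separate the end of miR-199a-3p from the start of miR-214-3p. The seeds of miR-199a-3p and miR-214-3p match at 5 of 7 positions, and those of the 2 miR-199a arms at 3 of 7. No other mature miRNA among the 693 in the sequence table carried any of the 3 seeds. The other arm of the hairpin, rno-miR-214-5p, had 1 read in all serum libraries and 17 in all bone libraries. From the opposite strand of the same site, where the Mir3120 hairpin covers 106 of the 108 bases of Mir214, rno-miR-3120 had 3 reads in serum and 3 in bone. No miR-199b was among the names in the files, and the reads cannot be assigned to one hairpin where 2 genes make the same mature miRNA.

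The libraries held 28015 to 205664 miRNA reads in serum and 41627 to 1398702 in bone. Of all reads, 0.529% to 4.09% were miRNA in serum and 1.58% to 21.5% in bone, so the members rested on few reads in serum. Levels are given as CPM, the reads of a miRNA relative to the miRNA reads of its library after TMM scaling over the libraries of a tissue. Adapter ligation favours some small RNAs over others, so an order between miRNAs within a library is an order of reads, while a difference between libraries is less exposed to it. The labels of the tissues were set against lists of marker miRNAs. Summed over the list, striated muscle miRNAs took 47990 to 456935 CPM in bone and 117 to 45291 CPM in serum, so muscle RNA was present in the bone libraries. Smooth muscle and stroma miRNAs (miR-143 and miR-145) took 34469 to 264595 CPM in bone and 4421 to 82920 in serum. Erythrocyte miRNAs took 26300 to 381326 CPM in serum against 7646 to 12572 in bone. The cartilage list took 9083 to 44866 CPM in bone and 14348 to 57215 in serum, the leukocyte list 3712 to 8311 in bone and 9159 to 69368 in serum. The endothelial list took 6765 to 42953 CPM in bone and 3801 to 20785 in serum. The platelet and myeloid list took 4676 to 32741 CPM in bone and 9512 to 54805 in serum. The liver list took 0 to 11.0 CPM in bone and 108 to 3218 in serum. No mature miRNA marks the osteoblast alone, so the cells that gave the members' reads are not known here.

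Both arms of miR-199a were abundant in bone and low in serum, while miR-214-3p held a similar rank in both tissues. The order of the 3 members turned round between the tissues. The number of reads per library had a median of 1598.5 for miR-199a-3p in bone (449 to 13532) and of 16 in serum (1 to 168). For miR-199a-5p the medians were 2778 in bone (478 to 11837) and 14.5 in serum (2 to 76). For miR-214-3p they were 133.5 in bone (13 to 2032) and 28.5 in serum (6 to 115). The bone libraries were deeper, at a median of 237032.5 miRNA reads against 86229.5 in serum, so read numbers also reflect depth. In CPM scaled over all libraries, miR-214-3p had medians of 625 in bone (179 to 4778) and 379 in serum (65.5 to 1659). In bone miR-199a-5p ranked 20 by median CPM among the 603 miRNAs with a read, miR-199a-3p ranked 31 and miR-214-3p ranked 97. In serum miR-214-3p came first of the members at rank 95 of 534, ahead of miR-199a-3p at rank 124 and miR-199a-5p at rank 137.

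The tissues were compared in placebo rats, on CPM scaled over all 48 libraries. In WT bone miR-199a-5p stood at 14460, 20231, 15440 and 13647 CPM, against 247, 459, 670, 311 and 306 CPM in WT serum. In WT bone miR-199a-3p stood at 9427, 24511, 7370 and 7289 CPM, against 352, 741, 864, 730 and 1319 CPM in serum. For both arms the lowest bone lay far above the highest serum. For miR-214-3p the WT bones stood at 583, 4778, 3154 and 2837 CPM and the sera at 527, 1659, 414, 335 and 620 CPM, and the groups overlapped, because the first bone lay within the range of the sera. By edgeR's quasi-likelihood test, bone exceeded serum in WT rats by 5.20 ± 0.41 on the log2 scale (SE) for miR-199a-5p (FDR = 9.73e-08), by 3.74 ± 0.49 for miR-199a-3p (FDR = 8.81e-06) and by 1.88 ± 0.51 for miR-214-3p (FDR = 0.0038). FDR is the Benjamini-Hochberg adjusted p over all miRNAs tested, and miRNAs with an FDR below 0.2 are said to pass. All 3 members passed, where 179 of 222 miRNAs (80.6%) did. The groups did not overlap for 2 of the 3 members, against 126 of 222 miRNAs (56.8%).

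In ZDF placebo rats all 3 members were again higher in bone, miR-214-3p by the least. MiR-199a-5p stood at 10834, 10701, 9014 and 6840 CPM in ZDF bone and 101, 167, 285, 95.7 and 315 CPM in ZDF serum. MiR-199a-3p stood at 3545, 4906, 7313 and 6461 CPM in ZDF bone and 320, 105, 266, 219 and 109 CPM in serum. MiR-214-3p stood at 287, 1035, 666 and 519 CPM in bone and 303, 293, 394, 164 and 522 CPM in serum. The first ZDF bone thus lay below 4 of the 5 sera for miR-214-3p. The log2 difference was 5.45 ± 0.42 for miR-199a-5p (edgeR FDR = 5.23e-08), 4.70 ± 0.40 for miR-199a-3p (FDR = 7.72e-08) and 0.74 ± 0.43 for miR-214-3p (FDR = 0.126). The call on miR-214-3p was lost without the second, the third or the fourth serum or without the second bone (FDR 0.300 to 0.472), and with miRNA totals as library size (0.58 ± 0.46, FDR = 0.252). The exact permutation p for miR-214-3p was 0.127. All 3 members passed, where 174 of 202 miRNAs (86.1%) did, and 2 of 3 did not overlap, against 135 of 202 miRNAs (66.8%). The bones came from rats that also gave serum, but the labels do not link them, so the tissues were treated as independent. A test of whether the genotype difference itself depended on the tissue passed for 0 of 229 miRNAs (0%), with 22 at an unadjusted p under 0.05 and 6 passing in DESeq2. For miR-214-3p this term was -1.11 ± 0.71 (edgeR FDR = 0.613), for miR-199a-3p 1.01 ± 0.62 (FDR = 0.613) and for miR-199a-5p 0.24 ± 0.57 (FDR = 0.927).

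**Figure D1:**
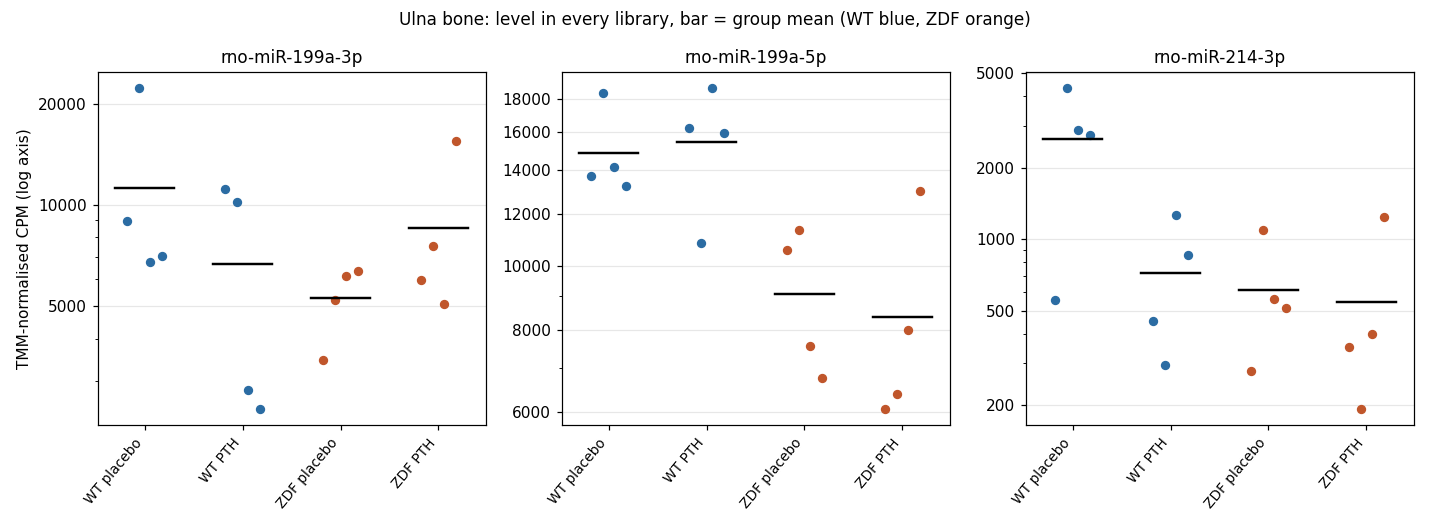
TMM-normalised CPM (log axis) of the 3 members in the 16 ulna bone libraries by group, with each point a library and each bar the group mean. For miR-199a-5p the 8 WT bones lie between 10851 and 18684 CPM and the 8 ZDF bones between 6050.1 and 13035 CPM. For miR-214-3p, 3 of the 4 WT placebo bones stand at 2749 CPM or more and the other 13 bones at 1265 CPM or less.

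In ulna bone under placebo, all 3 members had lower means in ZDF than in WT rats, and miR-214-3p alone passed, at the edge of the threshold. MiR-214-3p stood at 552, 4343, 2895 and 2749 CPM in the WT bones and at 279.7, 1098, 559 and 512 CPM in the ZDF bones. Of the WT bones, 3 lay above every ZDF bone, and the first WT bone lay among the ZDF bones. The fitted log2 difference was -2.14 ± 0.56 (edgeR FDR = 0.199), and DESeq2 gave an FDR of 0.00896. In DESeq2 all 3 members passed, among 35 of 235 miRNAs, against 6 by edgeR. MiR-199a-3p stood at 8934, 22275, 6764 and 7064 CPM in WT and at 3456, 5206, 6132 and 6374 CPM in ZDF bones. Each WT bone lay above each ZDF bone, by a small margin between the lowest WT and the highest ZDF library. Its log2 difference was -1.10 ± 0.41 (edgeR FDR = 0.248). MiR-199a-5p stood at 13703, 18386, 14171 and 13226 CPM in WT and at 10562, 11355, 7558 and 6748 CPM in ZDF bones, again without overlap. Its log2 difference was -0.75 ± 0.27 (edgeR FDR = 0.248). In an exact two-sided permutation test of the log2 CPM, p was 0.0286 for each arm of miR-199a, the smallest value that 4 against 4 allows, and 0.0857 for miR-214-3p.

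Of the members, 1 of 3 passed in this comparison, where 6 of 235 miRNAs (2.55%) did, and 2 of 3 did not overlap, against 20 of 235 (8.51%). The call on miR-214-3p was lost without the second or the third WT bone or without the first, the third or the fourth ZDF bone, each left out alone (edgeR FDR 0.314 to 0.486), and all 3 members passed without the first WT bone or without the second ZDF bone. Over all miRNAs 87 and 55 passed in these last 2 fits, against 6 with all libraries, and 0 in the 5 fits where the call was lost. With all reads of the library as its size, none of the 3 passed (FDR = 0.974 for each), at log2 differences of -2.33, -1.53 and -0.998 for miR-214-3p, miR-199a-3p and miR-199a-5p. The groups also differed in depth, at a median of 482239.5 miRNA reads (12.7% of all reads) in WT and 200997.5 (6.45%) in ZDF bones. The first WT bone was the shallowest of its group (195045) and the second ZDF bone the deepest (1398702). The deepest WT bone, the fourth, was not the highest in miR-214-3p, and the shallowest ZDF bone, the third, not the lowest. The part of depth in the difference was not tested. Markers of other cells moved in the same comparison. In the striated muscle list 2 of 5 miRNAs were higher in ZDF bone, and its sum ran from 53716 to 424725 CPM in WT and from 77198 to 456935 CPM in ZDF bones. The other lists had no miRNA that passed. The leukocyte list summed to 5888 to 8311 CPM in WT and 4239.8 to 5303 CPM in ZDF bones, and the platelet and myeloid list to 15965 to 18056 and 18153 to 32741 CPM, both without overlap. The endothelial list, which shares miR-126a-3p with the platelet and myeloid list, summed to 18109 to 22773 and 22323 to 42953 CPM. The cartilage list had sums of 16123 to 44866 CPM in WT and 9083 to 24392 CPM in ZDF bones. The part of these cells in the difference was not tested. Fewer cells of a type and less miRNA in each cell cannot be told apart in whole bone.

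Under PTH no member passed between the genotypes in bone, and the groups overlapped for each. MiR-199a-5p stood at 16229, 10851, 18684 and 15960.5 CPM in WT and at 6050.1, 6392, 7985 and 13035 CPM in ZDF bones. Only the fourth ZDF bone reached into the WT range. In log2 terms the difference was -0.97 ± 0.32 (edgeR FDR = 0.239, exact permutation p = 0.0571), and over the alternatives the FDR ran from 0.0755 in DESeq2 to 0.988 with all reads as library size, where the difference was 0.018 ± 0.745. MiR-199a-3p stood at 11178, 10192, 2809.7 and 2467 CPM in WT and at 5985, 7523, 5070.1 and 15509.9 CPM in ZDF bones. Of the 8 bones, 2 of the WT group were the lowest and the other 2 were exceeded by 1 ZDF bone alone. The fitted difference was 0.07 ± 0.60 (edgeR FDR = 0.976). MiR-214-3p stood at 450.3, 295, 1265 and 859 CPM in WT and at 351, 192, 399 and 1244 CPM in ZDF bones. Its log2 difference was -0.45 ± 0.54 (edgeR FDR = 0.690). Over all miRNAs tested 3.27% passed, 7 in all. In the striated muscle list 1 of 5 miRNAs was higher in ZDF PTH bone, and its sums of 128640 to 177836 CPM lay above the 47990 to 69126 CPM of WT PTH bone. In the leukocyte list 1 of 5 was lower. Their part in the differences was not tested. In the order of groups by mean, the WT PTH and WT placebo bones led for miR-199a-5p, at 15431 ± 3290.2 and 14872 ± 2374 CPM (SD, n = 4). The ZDF placebo and ZDF PTH bones followed at 9056 ± 2245 and 8366 ± 3225 CPM. The step from WT placebo to ZDF placebo was the one place in this order where mean and SD did not overlap.

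The first and second WT PTH bones, which hold the high miR-199a-3p values, were the shallowest bone libraries, with 54497 and 41627 miRNA reads against 163549 and 282285 in the other two. MiR-214-3p had 23 and 13 reads in them. Without these 2 libraries, an alternative added after the data were seen, miR-199a-3p was higher in ZDF than in WT PTH bone by 1.73 ± 0.46 on the log2 scale (edgeR FDR = 0.084) and miR-199a-5p passed as lower, at -0.996 ± 0.332 (FDR = 0.132). Over all miRNAs 43 passed in that fit, against 7.

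PTH against placebo gave lower miR-214-3p in WT bone. The WT placebo bones are the same as in the comparison with ZDF placebo bones, so the calls on miR-214-3p in these comparisons are not independent. The WT placebo bones, at 552, 4343, 2895 and 2749 CPM, stood against 450.3, 295, 1265 and 859 CPM under PTH. All but the first placebo bone lay above the 4 PTH bones. MiR-214-3p differed by a log2 value of -1.85 ± 0.57 (edgeR FDR = 0.154, exact permutation p = 0.0857). The placebo bones held a median of 482239.5 miRNA reads (12.7% of all reads) and the PTH bones 109023 (4.02%). The part of depth in the difference was not tested. The difference for miR-199a-3p was -0.53 ± 0.63 (FDR = 0.709) and that for miR-199a-5p was 0.10 ± 0.31 (FDR = 0.909). Of the members, 1 of 3 passed, where 12 of 222 miRNAs (5.41%) did, all of them lower under PTH. The call on miR-214-3p was lost when any one of 5 libraries was left out, namely the second, the third or the fourth placebo bone or the first or the second PTH bone (edgeR FDR 0.284 to 0.474). Without both shallow PTH bones the call passed from miR-214-3p (-1.50 ± 0.69, FDR = 0.349) to miR-199a-3p (-2.32 ± 0.58, FDR = 0.172), where 19 miRNAs in all passed. In the same comparison the smooth muscle and stroma list summed to 34469 to 121092 CPM under placebo and 77759 to 264595 CPM under PTH, and the striated muscle list to 53716 to 424725 and 47990 to 69126 CPM. The median log2 difference was -0.06 over the 4 smooth muscle and stroma miRNAs, none of which passed. Over the 5 striated muscle miRNAs it was 0.34. Both medians were opposite in sign to the shift of the sums. In the striated muscle, cartilage and leukocyte lists 1 miRNA each was lower under PTH. Their part in the difference was not tested.

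In ZDF bone PTH moved none of the members past the threshold. The log2 difference was 0.59 ± 0.35 for miR-199a-3p (edgeR FDR = 0.678), -0.17 ± 0.27 for miR-199a-5p (FDR = 0.895) and -0.21 ± 0.53 for miR-214-3p (FDR = 0.958). In this comparison 0 of 215 miRNAs (0%) passed, with 13 at an unadjusted p under 0.05 and 1 passing in DESeq2. The fourth ZDF PTH bone was the highest of its group for each member, at 15509.9, 13035 and 1244 CPM. Whether PTH acted differently in the genotypes was tested by an interaction term, in which 0 of 243 miRNAs (0%) passed, with 13 at an unadjusted p under 0.05 and 1 passing in DESeq2. The term was 1.59 ± 0.81 for miR-214-3p (edgeR FDR = 0.753), 1.24 ± 0.73 for miR-199a-3p (FDR = 0.753) and -0.25 ± 0.43 for miR-199a-5p (FDR = 0.904). Without the 2 shallow WT PTH bones the term for miR-199a-3p was 2.87 ± 0.67 (FDR = 0.0527), 1 of 7 miRNAs that passed there.

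**Figure D2:**
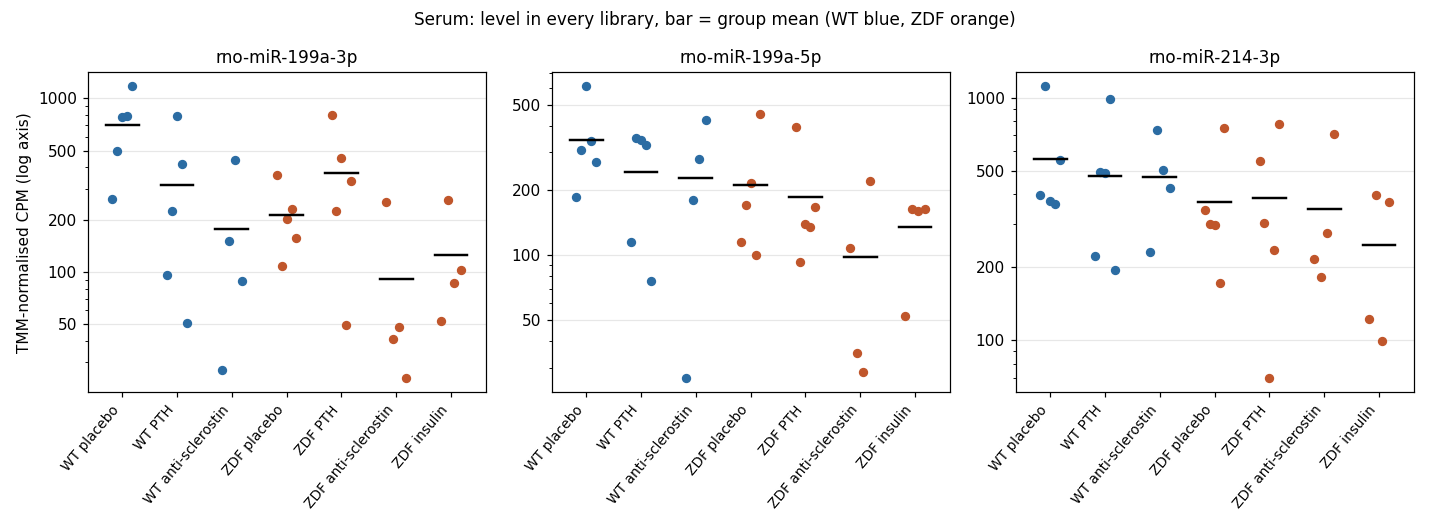
TMM-normalised CPM (log axis) of the 3 members in the 32 serum libraries by group, with each point a library and each bar the group mean. For miR-199a-3p the WT placebo group has the highest mean, at 703 CPM, and the ZDF anti-sclerostin group the lowest, at 91.4 CPM. Every group overlaps its neighbours in the order of means.

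In serum under placebo, miR-199a-3p was lower in ZDF than in WT rats. It stood at 264, 497, 783, 796 and 1173 CPM in WT and at 363, 107, 201, 229 and 157 CPM in ZDF sera, from 50 to 168 and 9 to 27 reads. Of the WT sera, 4 lay above every ZDF serum, and the first WT serum lay within the ZDF range. The means were 703 ± 343 and 212 ± 96.6 CPM (SD, n = 5), the log2 difference was -1.82 ± 0.43 (edgeR FDR = 0.0262) and the exact permutation p was 0.0159. MiR-199a-3p passed with any 1 library left out, at -1.97 to -1.51, and with a term for hemolysis (miR-451-5p of red cells set against miR-23a-3p on the log2 scale), at -1.54 ± 0.40 (FDR = 0.0275). It did not pass with all 7 serum groups in one fit, at -1.73 ± 0.65 (FDR = 0.230).

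The other members had lower means in ZDF sera but did not pass. MiR-199a-5p stood at 186, 308, 607, 339 and 272 CPM in WT and at 115, 172, 216, 100.3 and 454 CPM in ZDF sera, a log2 difference of -0.74 ± 0.45 (edgeR FDR = 0.486). MiR-214-3p stood at 396, 1113, 376, 365 and 552 CPM in WT and at 344, 301, 297, 172 and 750.1 CPM in ZDF sera, a log2 difference of -0.68 ± 0.44 (FDR = 0.545). In both, the fifth ZDF serum was high and lay within the WT range. Of the members, 1 of 3 passed, where 10 of 164 miRNAs (6.1%) did, and 0 of 3 were free of overlap, against 5 of 164 (3.05%). The liver list, miR-122-5p and miR-122-3p, was higher in ZDF sera in 2 of 2 miRNAs (183 to 2024 against 168 to 427 CPM in sum). In the smooth muscle and stroma list 1 of 3 tested miRNAs was higher (11407 to 69407 against 9663 to 24374 CPM). The erythrocyte list had none that passed, with sums of 87066 to 159349 CPM in ZDF and 75272 to 251022 CPM in WT sera. Their part in the difference was not tested.

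The size of the serum difference depended on what the reads were set against. The ZDF placebo sera held a median of 76854 miRNA reads and 343069 reads of the synthetic RNAs added at extraction, and the WT placebo sera 119232 and 337482. Scaled to the added RNAs, all 3 members passed as lower in ZDF sera, at -2.79 ± 0.76 for miR-199a-3p (edgeR FDR = 0.0525), -2.01 ± 0.74 for miR-199a-5p (FDR = 0.130) and -1.64 ± 0.70 for miR-214-3p (FDR = 0.163). Over all miRNAs 37 of 164 passed in that fit, against 10. This scaling moved the median miRNA by -0.93. With all reads as the library size, the median miRNA moved by -0.76. The 3 members also passed there, at -2.60, -1.48 and -1.63, among 106 of 164 miRNAs.

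In sera of treated rats no member passed between the genotypes. Under PTH miR-199a-3p ranged from 50.9 to 794 CPM in WT (median 225) and from 49.3 to 805 CPM in ZDF sera (median 334). The log2 difference was 0.23 ± 0.72 for miR-199a-3p (edgeR FDR = 0.908), -0.39 ± 0.52 for miR-199a-5p (FDR = 0.896) and -0.34 ± 0.61 for miR-214-3p (FDR = 0.896). In this comparison 0 of 158 miRNAs (0%) passed, with 5 at an unadjusted p under 0.05 and 0 in DESeq2. Under anti-sclerostin miR-199a-3p had 2, 15, 66 and 5 reads in WT and 7, 7, 5 and 1 in ZDF sera, and the filter on low counts removed it from the fit. Its mean log2 CPM differed by -0.92 (exact permutation p = 0.371). MiR-199a-5p differed by -1.34 ± 0.85 (edgeR FDR = 0.863) and miR-214-3p by -0.39 ± 0.56 (FDR = 0.982). Here 0 of 161 miRNAs (0%) passed, with 11 at an unadjusted p under 0.05 and 6 passing in DESeq2.

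The largest fitted differences of miR-199a-3p among the treatments were those of anti-sclerostin, none of which passed. The paper's list of animals credits the antibody rats to another earlier study than the placebo rats. Antibody and study thus cannot be told apart in the comparisons with placebo. In WT sera miR-199a-3p stood at 27.1, 151, 442 and 88.7 CPM under the antibody against 264, 497, 783, 796 and 1173 CPM under placebo. Of the treated sera, 3 lay below every placebo serum. The log2 difference was -2.03 ± 0.62 (edgeR FDR = 0.245, exact permutation p = 0.0238), with -0.64 ± 0.58 for miR-199a-5p (FDR = 0.631) and -0.33 ± 0.48 for miR-214-3p (FDR = 0.788). The FDR of miR-199a-3p was 0.0705 in DESeq2 and ranged from 0.0225 to 0.984 over the alternatives. In the same sera the cartilage list summed to 38028 to 46950 CPM under the antibody and 14348 to 35245 CPM under placebo, without overlap, and the smooth muscle and stroma list to 5695 to 12367 and 9663 to 24374 CPM. The median log2 difference of the 4 cartilage miRNAs was -0.18, opposite in sign to the change of their sum, and none of the 4 passed. The part of these cells in the difference was not tested. Here 0 of 171 miRNAs (0%) passed, with 18 at an unadjusted p under 0.05 and 5 passing in DESeq2. In ZDF sera miR-199a-3p stood at 252, 41.1, 47.7 and 24.5 CPM under the antibody against 363, 107, 201, 229 and 157 CPM under placebo. The treated values came from 1 to 7 reads, and 3 of the 4 lay below every placebo serum. The log2 difference was -1.44 ± 0.63 (edgeR FDR = 0.439), with -1.27 ± 0.70 for miR-199a-5p (FDR = 0.524) and -0.05 ± 0.54 for miR-214-3p (FDR = 0.938). None of the members passed, where 2 of 158 miRNAs (1.27%) did. The smooth muscle and stroma list summed to 4421 to 11241 CPM under the antibody and 11407 to 69407 CPM under placebo, and the endothelial list to 3801 to 7674 and 7972 to 15242 CPM, both without overlap. In each of these lists 1 of 2 tested miRNAs was lower. Their part in the difference was not tested. The interaction of antibody and genotype was 0.62 ± 0.95 for miR-199a-3p (FDR = 0.876), -0.58 ± 0.93 for miR-199a-5p (FDR = 0.876) and 0.29 ± 0.73 for miR-214-3p (FDR = 0.887). In that test 0 of 189 miRNAs (0%) passed, with 4 at an unadjusted p under 0.05 and 0 in DESeq2. The comparisons of treatments with placebo within a genotype share their placebo sera.

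PTH gave differences of opposite sign for miR-199a-3p in the sera of the genotypes, and neither passed. In WT sera under PTH it stood at 96.4, 225, 794, 419.5 and 50.9 CPM, a log2 difference from placebo of -1.27 ± 0.68 (edgeR FDR = 0.992). In ZDF sera under PTH it stood at 805, 225, 454, 49.3 and 334 CPM, a log2 difference from placebo of 0.80 ± 0.52 (FDR = 0.993). The interaction term was 1.97 ± 0.91, with an unadjusted edgeR p of 0.0409 and an FDR of 0.922. For miR-199a-5p the log2 differences were -0.61 ± 0.53 in WT and -0.21 ± 0.48 in ZDF sera, and for miR-214-3p they were -0.31 ± 0.55 and 0.09 ± 0.54 (edgeR FDR = 0.992 in WT and 0.993 in ZDF sera for both). The interaction terms were 0.26 ± 0.73 for miR-199a-5p and 0.27 ± 0.79 for miR-214-3p (FDR = 0.989 for both). In WT sera 0 of 170 miRNAs (0%) passed, with 2 at an unadjusted p under 0.05 and 0 in DESeq2. In ZDF sera it was 0 of 154 (0%), with 4 and 0, and in the interaction 0 of 182 (0%), with 8 and 0. Scaling to the added RNAs moved the median miRNA by 1.45 in ZDF sera. There miR-199a-3p and miR-199a-5p passed as higher under PTH, at 2.59 ± 0.94 and 1.35 ± 0.80, among 88 of 154 miRNAs.

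Insulin, given to ZDF rats, was the serum treatment with the most miRNAs that passed, 40 of 151 (26.5%), and none of the members was among them. MiR-199a-3p stood at 52.2, 259, 86.4 and 103 CPM, miR-199a-5p at 52.2, 164, 160.4 and 165 CPM and miR-214-3p at 122, 395, 98.7 and 370.2 CPM. Each range overlapped that under placebo. The log2 differences were close to each other, at -0.74 ± 0.50 (edgeR FDR = 0.384), -0.71 ± 0.51 (FDR = 0.420) and -0.66 ± 0.51 (FDR = 0.443). The erythrocyte list summed to 233362 to 381326 CPM under insulin and 87066 to 159349 CPM under placebo, without overlap. In this list 4 of 4 miRNAs passed as higher, and in the liver list 2 of 2 as lower. In the cartilage list 1 of 2 tested was higher and in the leukocyte list 1 of 4 tested was lower. Their part in the differences was not tested. With the hemolysis term the differences of miR-199a-5p and miR-214-3p turned to 1.14 ± 1.25 and 1.25 ± 1.22 (FDR = 0.831 for both). That of miR-199a-3p ranged from -1.11 to 0.22 over all alternatives, this term included.

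**Figure D3:**
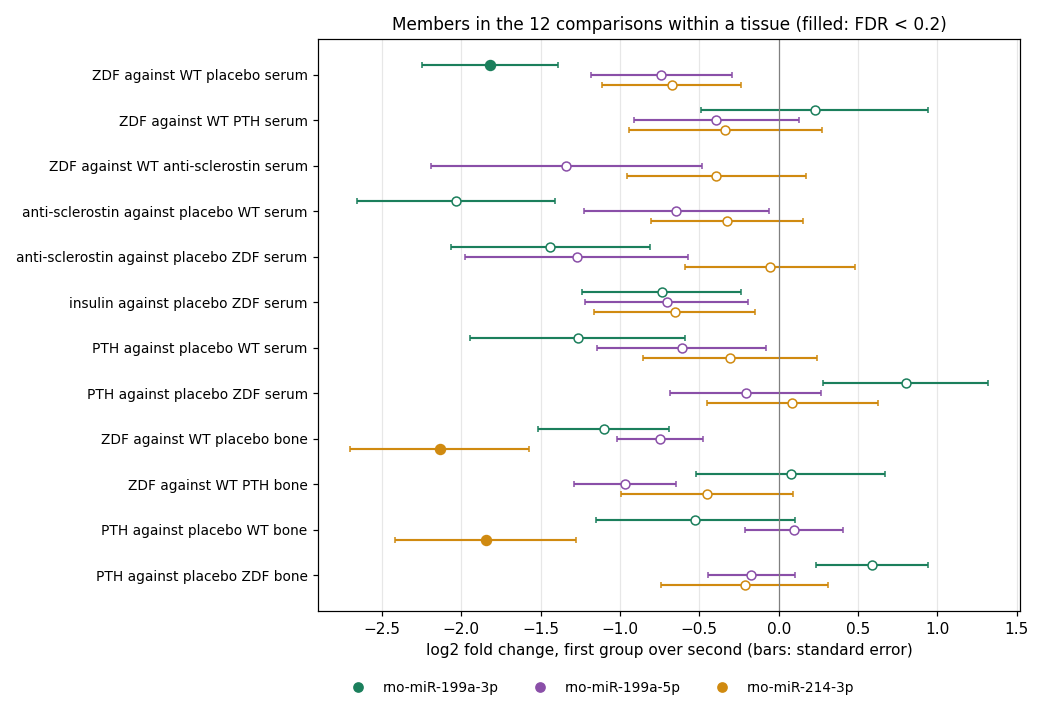
Log2 fold change (x axis) of the 3 members with its standard error in the 12 comparisons of 2 groups within a tissue, filled where FDR < 0.2. The filled points are miR-199a-3p in ZDF against WT placebo serum (-1.82) and miR-214-3p in ZDF against WT placebo bone (-2.14) and in PTH against placebo WT bone (-1.85). The last 2 share the WT placebo bones.

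Ratios of the members within a library do not depend on how the library is scaled. In bone, the reads of miR-199a-3p over those of miR-199a-5p had a median of 0.670 (0.151 to 1.21, n = 16), and in serum a median of 1.29 (0.158 to 4.27, n = 32). For miR-199a-3p over miR-214-3p the medians were 12.3 in bone (2.22 to 38.8) and 0.466 in serum (0.0508 to 6.08). In WT placebo rats the first ratio was 0.652, 1.21, 0.477 and 0.534 in bone and 1.42, 1.603, 1.29, 2.32 and 4.27 in serum, without overlap. The second was 16.1, 5.13, 2.34 and 2.57 in bone and 0.669, 0.449, 2.07, 2.16 and 2.12 in serum. Here too every bone lay above every serum, closely in the third. In ZDF placebo rats the first ratio was 0.327, 0.459, 0.811 and 0.945 in bone and 3.00, 0.636, 0.932, 2.20 and 0.358 in serum. There the tissues overlapped (exact permutation p = 0.278, adjusted 0.519). The second ratio in ZDF placebo rats was 12.3, 4.74, 10.9 and 12.4 in bone and 1.05, 0.368, 0.679, 1.32 and 0.218 in serum, without overlap. Of 28 ratio tests, 6 had an exact permutation p under 0.05 and none an adjusted p under 0.05. The lowest adjusted value, 0.0741, was that of the 3 tissue comparisons without overlap (exact permutation p = 0.00794, the smallest that 4 against 5 allows).

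**Figure D4:**
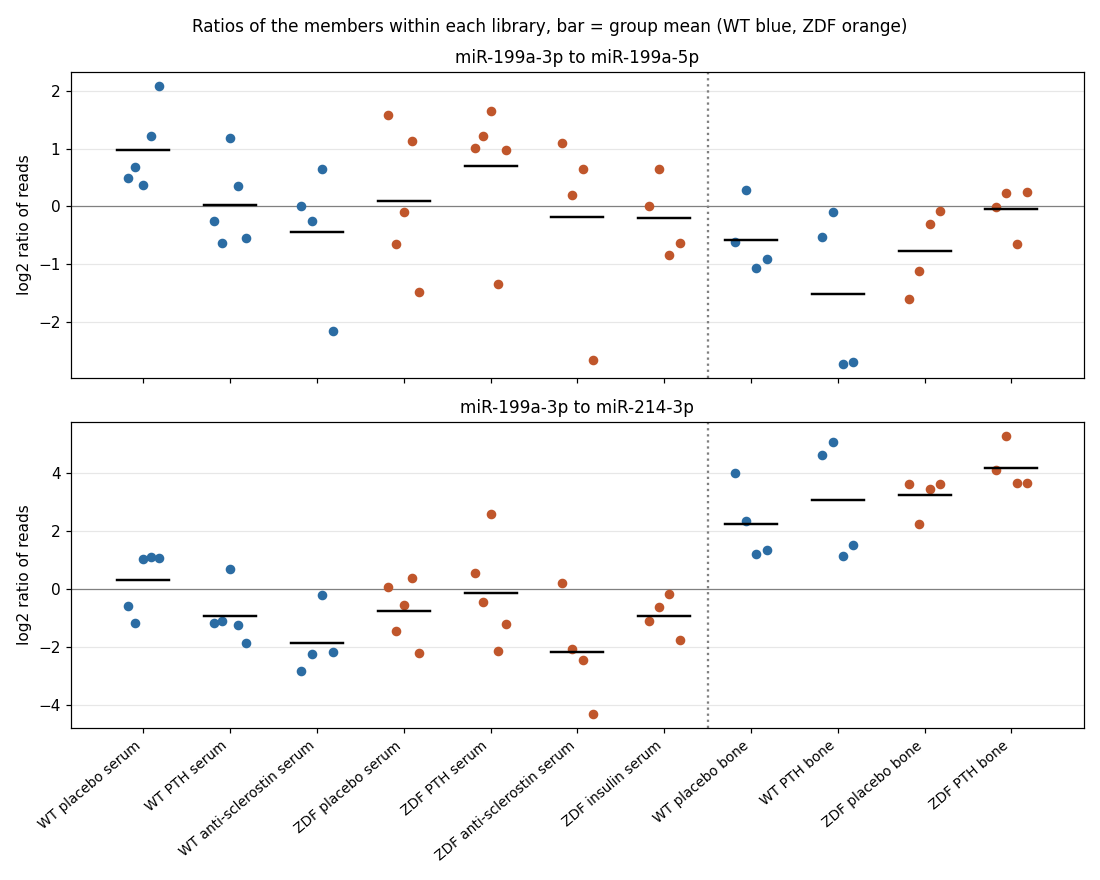
Log2 ratio (y axis) of the reads of miR-199a-3p to miR-199a-5p and to miR-214-3p in each of the 48 libraries by group, serum left and bone right of the dotted line, with the group mean as a bar. All 16 bones lie above 1 on the log2 scale in the second ratio, and 2 of the 4 WT PTH bones lie below -2 in the first.

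Within bone, the 2 arms of miR-199a did not keep a fixed ratio. In the WT PTH bones it was 0.689 and 0.939 in the shallow libraries and 0.151 and 0.155 in the other two. In the ZDF PTH bones it was 0.989, 1.18, 0.635 and 1.19, and the mean log2 ratios of these groups differed by 1.47 (exact permutation p = 0.114, adjusted 0.356). The ratio of miR-199a-3p to miR-214-3p was 17.0, 38.8, 12.6 and 12.5 in ZDF PTH bones and 12.3, 4.74, 10.9 and 12.4 in ZDF placebo bones. The highest placebo bone lay just below the lowest PTH bone (exact permutation p = 0.0286, adjusted 0.178). In WT sera the mean log2 ratio of miR-199a-3p to miR-214-3p under anti-sclerostin minus that under placebo was -2.15 (exact permutation p = 0.0397, adjusted 0.185), and that to miR-199a-5p gave -1.41 (exact permutation p = 0.0317, adjusted 0.178).

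Across all libraries of a tissue the members did not rise and fall as one. In serum (n = 32), log2 CPM of the 2 arms of miR-199a had a Pearson r of 0.647 and a Spearman rho of 0.555 (permutation p = 3.0e-05 and 0.00114). For miR-199a-5p and miR-214-3p they were 0.576 and 0.723 (permutation p = 0.00077 and 2.0e-05). For miR-199a-3p and miR-214-3p they were 0.348 and 0.424 (permutation p = 0.0514 and 0.0166). In bone (n = 16), miR-199a-5p and miR-214-3p had an r of 0.654 and a rho of 0.679 (permutation p = 0.00679 and 0.00523). The arms of miR-199a had an r of 0.111 and a rho of 0.144 in bone (permutation p = 0.682 and 0.592), and miR-199a-3p and miR-214-3p an r of 0.251 and a rho of 0.132 (permutation p = 0.347 and 0.622). Over these 6 pairs, the adjusted p of Pearson's r were, in the same order, 0.00018, 0.00231, 0.0772, 0.0136, 0.682 and 0.416, and those of rho 0.00342, 0.00012, 0.0249, 0.0105, 0.622 and 0.622. Without the 2 libraries farthest from the median of the first-named member, r was 0.667, 0.625, 0.447, 0.549, 0.0558 and 0.00115. With the group means taken out it was 0.496, 0.551, 0.272, 0.632, 0.0937 and 0.0392. The permutations ran over all libraries of a tissue without regard to group, so differences between groups enter these p-values. No p was computed with the group means taken out. Libraries of a tissue share a scaling, and serum levels rest on few reads.

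The miRNAs whose level was most like that of a member were taken as those with the highest Pearson r over the libraries of a tissue, as a description. The candidates were 151 miRNAs in serum and 223 in bone with at least 10 reads in 50% or more of the libraries. For miR-199a-3p the leading 2 were the same in both tissues, rno-miR-99b-5p (r = 0.768 in serum and 0.757 in bone) and rno-miR-125a-5p (0.762 and 0.642), which are made from one cluster. The third was rno-miR-125b-5p in serum (0.743) and rno-miR-30b-5p in bone (0.639). For miR-199a-5p they were rno-miR-497-5p (0.801), rno-miR-100-5p (0.740) and rno-miR-23b-3p (0.669) in serum. In bone they were rno-miR-140-5p, the cartilage miRNA (0.856), rno-miR-130a-3p (0.832) and rno-miR-18a-5p (0.805). For miR-214-3p they were rno-miR-709 (0.711), rno-miR-874-3p (0.578) and rno-miR-322-3p (0.541) in serum. In bone they were rno-miR-139-5p (0.938), rno-miR-149-5p (0.927) and rno-miR-23b-3p (0.919). The median r over all candidates lay between -0.10 and 0.20 for each member and tissue.

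Other miRNAs known to act on osteoblast differentiation gave a frame for the members. Of a list of 20, 12 could be tested in placebo serum, where 1 was higher and 0 lower in ZDF rats (median log2 difference -0.10, and -0.09 over all miRNAs). It was rno-miR-31a-5p, at 1.68 ± 0.42 (edgeR FDR = 0.0262), opposite in sign to miR-199a-3p. In placebo bone 17 could be tested, of which 1 was higher and 0 lower (median -0.03, and -0.05 over all miRNAs). It was rno-miR-206-3p, a muscle miRNA that is also on the striated muscle list, at 1.16 ± 0.32 (FDR = 0.199). In WT bone under PTH 3 of 17 were lower and 0 higher (median -0.08, and -0.06 over all miRNAs). They were rno-miR-31a-5p (-2.07 ± 0.62), the muscle miRNA rno-miR-133a-3p, which targets Runx2 (-1.83 ± 0.53), and rno-miR-125b-5p (-1.32 ± 0.43). Under insulin 5 of 12 were lower in ZDF serum (median -0.61, and -0.10 over all miRNAs), where 23 of 151 miRNAs were lower and 17 higher. They were named after their values were seen, as rno-miR-21-5p, rno-miR-22-3p, rno-miR-29a-3p, rno-miR-29c-3p and rno-miR-31a-5p. Under PTH 1 of 17 was higher in ZDF than in WT bone, rno-miR-133a-3p (1.303, edgeR FDR = 0.0354), and in the other 7 comparisons within a tissue none passed.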

How the data were processed

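Small RNA was sequenced from 32 sera and 16 ulna bones. Per the study's methods, the authors trimmed adapters (cutadapt), dropped reads under 17 nt, and aligned the rest to Rnor 6.0 and then to miRBase (bowtie, miRDeep2), counting reads on mature miRNAs. The deposited counts are raw whole numbers. The authors also deposited RPM per all reads of a library, from which its total was computed. Positions and sequences are RefSeq's on GRCr8, another build, which was not used for mapping. Of the 763 listed miRNAs 686 matched a sequence.

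Counts were tested here with edgeR 4.0.16 in R 4.3.3 (quasi-likelihood, TMM, filterByExpr, legacy = TRUE, robust = FALSE). A fit held no groups but those it compared. FDR is the Benjamini-Hochberg adjusted p over all miRNAs fitted. In all 18 fits were made, 12 within a tissue, 2 between tissues and 4 interactions. SE is the log2 fold change over the root of F. The 42 exact permutation tests of member levels used log2(CPM + 1) and were not adjusted, and 8 had p under 0.05. The smallest exact p is 0.00794 for 5 against 5 or 4 against 5 and 0.0286 for 4 against 4. Ratios had 0.5 added to each count and were tested where the median of the summed reads was at least 10 in both groups. All tests were two-sided. Correlations used 100000 permutations. The p-values of group comparisons set a difference between groups against the spread between their libraries. The edgeR test was also run on simulated data, with an outcome that is not reported here.

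The members and lists were chosen with earlier results of these data known. Members, relatives of the same hairpins, the 3 most similar miRNAs per member and tissue and a list of 20 osteoblast regulators (values for those that passed in placebo comparisons and at most 4 others) were named. Replicate numbers only name libraries, so the labels pair none. Counts of all 82 pairs of libraries within a group differed by more than counting noise. Alternatives were other scalings (RLE, miRNA totals, all reads, added RNAs in serum), DESeq2 1.42.0, other filters (no filter, or one on mean CPM tuned to the most calls), all groups in one fit, legacy = FALSE, a hemolysis term in serum, each library left out, other pseudocounts, and, after the data were seen, the 2 shallow WT PTH bones left out.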

Additional observations from a re-analysis of the deposited data

Results flagged for a closer look

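In 55 groups of 4 or 5 libraries the highest or lowest library was set against the others by the gap to its nearest neighbour over the range of the group (Dixon's test). Chance alone marks about 1 in 20 such groups, and 7 were marked. Of the member levels, miR-199a-3p in the second WT placebo bone, at 22275 CPM against 6764 to 8934 CPM in the other 3 bones, had a gap of 0.8601 of the range. MiR-199a-3p in the first ZDF anti-sclerostin serum, at 252 CPM from 7 reads against 24.5 to 47.7 CPM, had a gap of 0.8978. MiR-199a-5p in the first ZDF insulin serum, at 52.2 CPM from 3 reads against 160.4 to 165 CPM, had a gap of 0.9634. MiR-199a-5p in the first ZDF PTH serum, at 396 CPM against 92.8 to 167 CPM, had a gap of 0.7551. MiR-214-3p in the second WT placebo serum, at 1113 CPM against 365 to 552 CPM, had a gap of 0.7508. Of the ratios on the log2 scale, that of miR-199a-3p to miR-214-3p in the second ZDF placebo bone, at 4.74 against 10.9 to 12.4 as plain ratios, had a gap of 0.8674. That of miR-199a-3p to miR-199a-5p in the fourth ZDF PTH serum, at 0.391, had a gap of 0.7741. No interaction term passed for a member with all libraries in the fit.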

How the results depend on the processing

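In serum the members rest on 1 to 168 reads and in bone on 13 to 13532, and reads were not tagged by molecule, so counting error is a lower limit of the error. Levels are relative to the other miRNAs of a library. Another scaling shifts a whole library, but the fitted differences did not all move by the same amount. In ZDF against WT placebo serum, the added RNAs as library size took miR-199a-5p from -0.74 to -2.01 and miR-214-3p from -0.68 to -1.64. No paired analysis was possible because the labels give no replicate numbers that link libraries across groups. The causes of the changes below were not tested.

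A higher count of members does not single them out where more miRNAs passed in the same fit. In ZDF against WT placebo serum 1 member passed, 3 with all reads or with the added RNAs as library size and 0 with all groups in one fit. With all reads 106 miRNAs in all passed there, against 10 as reported. In ZDF against WT placebo bone 1 passed, 3 in DESeq2 or with a tuned filter after filterByExpr, 2 with a tuned filter on all miRNAs with a read, and 0 with no filter on these, with all reads as library size or with all groups in one fit. In DESeq2 35 miRNAs in all passed there, against 6 as reported. The number of members was 0 to 3 with 1 library left out. In ZDF against WT PTH bone 0 passed, 1 in DESeq2, with the tuned filter after filterByExpr, with all groups in one fit or with all reads, and 2 without the shallow WT PTH bones. Without these shallow bones 43 miRNAs in all passed, against 7 as reported. The number of members was 0 to 1 with 1 library left out (1 without the fourth ZDF PTH bone). In PTH against placebo in WT bone 1 passed, 2 with all reads as library size and 0 to 1 with 1 library left out. In genotype by PTH in bone 0 passed, 1 without the shallow bones and 0 to 1 with 1 library left out (1 without the first WT placebo bone). In anti-sclerostin against placebo in WT serum 0 passed, 1 in DESeq2, with the added RNAs, with legacy = FALSE, with either filter on all miRNAs with a read or with the tuned filter after filterByExpr. It was 0 to 1 with 1 library left out (1 without the first or second placebo or the third treated serum). In ZDF serum it was 1 with the tuned filter on all miRNAs with a read and 0 to 1 with 1 library left out (1 without the first treated serum). For insulin it was 0 to 1 (1 without the second insulin serum), and for PTH in ZDF serum 2 with the added RNAs. In that last fit 88 miRNAs in all passed, against 0 as reported. Over the 42 exact permutation tests, 15 instead of 8 had p under 0.05 with RPM on all reads.

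The log2 difference changed sign as follows. With the added RNAs as library size it was 0.40 for miR-199a-5p and 0.26 for miR-214-3p in ZDF against WT PTH serum, 0.35 for miR-214-3p under anti-sclerostin in ZDF serum, 0.22, 0.21 and 0.44 for miR-199a-3p, miR-199a-5p and miR-214-3p under insulin, 1.35 for miR-199a-5p under PTH in ZDF serum and 1.03 for miR-199a-5p in genotype by anti-sclerostin. With all reads it was 0.0045 for miR-214-3p in ZDF against WT PTH serum, 0.11 for miR-214-3p under anti-sclerostin in ZDF serum, 0.018 and 0.35 for miR-199a-5p and miR-214-3p in ZDF against WT PTH bone, -1.19 for miR-199a-5p under PTH in WT bone and 1.02 for it in genotype by PTH in bone. With the hemolysis term it was 1.14 and 1.25 for miR-199a-5p and miR-214-3p under insulin. In DESeq2 it was 0.0042 for miR-214-3p under anti-sclerostin in ZDF serum. For miR-214-3p under PTH in ZDF serum it was -0.0043 with miRNA totals and -0.023 with all groups in one fit. For miR-199a-5p it was -0.038 with miRNA totals in genotype by tissue and -0.0092 without the shallow bones under PTH in WT bone. With RPM on all reads the mean log2 differences were 0.039 for miR-214-3p under anti-sclerostin in ZDF serum, 0.018 and 0.12 for miR-199a-5p and miR-214-3p under PTH in ZDF serum, 0.31 and 0.65 for them in ZDF against WT PTH bone and -1.50 for miR-199a-5p under PTH in WT bone.

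With 1 library left out, the log2 difference of miR-199a-3p ranged from -0.20 to 0.96 in ZDF against WT PTH serum, -0.23 to 0.53 in ZDF against WT PTH bone, -0.98 to 0.013 under PTH in WT bone and -0.49 to 1.26 in genotype by anti-sclerostin. That of miR-199a-5p ranged from -0.67 to 0.23 under PTH in ZDF serum and -0.096 to 0.54 in genotype by tissue. That of miR-214-3p ranged from -0.74 to 0.19 in ZDF against WT PTH serum, -0.65 to 0.21 and -0.60 to 0.38 under anti-sclerostin in WT and ZDF serum, -0.70 to 0.13 and -0.42 to 0.49 under PTH in WT and ZDF serum, -0.93 to 0.097 under PTH in ZDF bone, -0.44 to 0.67 in genotype by anti-sclerostin and -0.078 to 0.89 in genotype by PTH in serum.

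Over all miRNAs, the number that passed ranged over the alternatives from 9 to 106 (10 as reported) in ZDF against WT placebo serum, 0 to 35 (6) in placebo bone, 6 to 43 (7) in PTH bone, 18 to 55 (12) for PTH in WT bone, 0 to 59 (40) for insulin, 0 to 24 (2) and 0 to 17 (0) for anti-sclerostin in ZDF and WT serum, 0 to 12 (0) in ZDF against WT anti-sclerostin serum, 0 to 88 (0) for PTH in ZDF serum, and 175 to 330 (179) and 169 to 348 (174) for bone against serum in WT and ZDF rats. In the interactions of genotype it ranged from 0 to 27 (0) with tissue, 0 to 8 (0) and 0 to 6 (0) with PTH in bone and serum and 0 to 3 (0) with anti-sclerostin. With 1 library left out it ranged from 0 to 87 in placebo bone, 0 to 89 for PTH in WT bone (both highest without the first WT placebo bone), 3 to 25 in PTH bone (highest without the fourth ZDF PTH bone), 4 to 59 for insulin (lowest without the third insulin serum), 0 to 22 for anti-sclerostin in ZDF serum (highest without the first treated serum), 0 to 9 for it in WT serum, 0 to 16 for PTH in ZDF bone, 8 to 17 in placebo serum, and 0 to 21 and 0 to 26 in the interactions of genotype with PTH in bone and with tissue.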
